A study of Arabidopsis thaliana with 18 samples.

Results

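The 2 entries of the miR393 family in a table of 161 *Arabidopsis thaliana* miRNA entries are miR393a-3p and miR393b-3p, the strands opposite the strand that targets the auxin receptor mRNAs. They were taken by family number and not by a threshold on their levels, but earlier results of these data were known when they were chosen. The p-values below do not allow for that choice. Both passed the low-value filter, a mean of at least 1 RPMR (reads of an entry scaled to the reads of 45S rRNA in its library), which left 139 of the 161 entries for testing. The strand that cuts the receptor mRNAs, miR393-5p, was not analysed here. Small RNA was sequenced from whole 4-d-old seedlings of *dcl1-24/hyl1-2*, *hyl1-2* and Col-0, each at 27 °C and at 21 °C, with 3 libraries in each of the 6 groups. All seedlings first grew for 48 h at 21 °C in red light and then for 48 h at their final temperature. Col-0 is the wild type, and *hyl1-2* is a null mutant of HYL1, a double-stranded RNA-binding partner of the nuclease DCL1. *dcl1-24/hyl1-2* carries that same null allele together with a dominant substitution allele of *DCL1* that came from a suppressor screen of mutagenised *hyl1-2*, so both mutants lack HYL1. The study asked how HYL1 and the miRNAs bear on growth responses to warmth. Its methods name biological replicates without saying whether these were separate plantings, and p-values therefore measure the spread between these libraries. HYL1 mRNA is not measured by small RNA sequencing, so the genotype labels were not checked on it.

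A plant miRNA precursor folds into a hairpin. DCL1, aided by HYL1, cuts a short duplex from its stem, and commonly the strand from a single arm, the guide, is kept in ARGONAUTE1 while the opposite strand, the passenger or star strand, is lost. In *Arabidopsis* the guide of both miR393 precursors is the 5p strand, which represses TIR1 and related AFB receptors of the growth hormone auxin. The 3p strand of *MIR393B* is known from work on immunity to enter ARGONAUTE2 and to repress *MEMB12*, which encodes a Golgi-localised SNARE protein of membrane trafficking. Since the guides of the 2 precursors are alike in sequence, the 3p strands are what lets the products of each precursor be counted apart.

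The mature strands are shown because their only difference decides which precursor a read is given to. Both genes lie on the plus strand of TAIR10.1 and are annotated by RefSeq as miRNA genes. *MIR393a* (AT2G39885) occupies chromosome 2, positions 16652101 to 16652233, with its 3p strand at 16652205 to 16652225. *MIR393b* (AT3G55734) occupies chromosome 3, positions 20691647 to 20691806, with its 3p strand at 20691778 to 20691798. The capitals mark the seed, bases 2 to 8 from the 5′ end, and the last line is the 5p strand that both precursors share over all 22 bases.
miR393a-3p: aUCAUGCUaucucuuuggauu
miR393b-3p: aUCAUGCGaucucuuuggauu
miR393a-5p and miR393b-5p: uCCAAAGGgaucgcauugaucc
From miR393a-3p to miR393b-3p the substitution is U8G, counted from the 5′ end, and the other 20 of 21 bases are identical. The strands thus differ within the seed. Each 3p strand matches the genome exactly 1 time, whereas the 5p strand matches 2 times. Reads of 18 to 42 nt had been kept and aligned without mismatches. All 4 windows of 18 nt in the 21 nt strands differ between the 2 strands, so that no kept read lying within either strand could be given to the other without a mismatch.

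The precursors are shown with their 2 arms in capitals, since the unequal lengths and loops lie outside the arms.
MIR393a precursor: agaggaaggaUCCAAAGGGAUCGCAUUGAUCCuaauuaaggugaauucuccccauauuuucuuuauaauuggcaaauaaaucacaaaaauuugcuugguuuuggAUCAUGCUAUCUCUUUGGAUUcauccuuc
MIR393b precursor: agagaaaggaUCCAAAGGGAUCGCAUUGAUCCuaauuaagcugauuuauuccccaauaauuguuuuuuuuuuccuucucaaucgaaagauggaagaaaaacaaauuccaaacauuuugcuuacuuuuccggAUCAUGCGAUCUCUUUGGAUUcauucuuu
The annotated *MIR393b* precursor is longer (160 nt, with 99 nt between the arms) than that of *MIR393a* (133 nt, with 72 nt between the arms). In the minimum free energy folds of RNAfold, which were −55.1 kcal/mol for *MIR393b* and −45.9 kcal/mol for *MIR393a*, all 21 bases of miR393b-3p were paired. In miR393a-3p 20 of 21 were paired, and the unpaired base was the one at position 8, where the strands differ. In miR393b-3p this base faced a C at position 12 of the 5p arm. These are predicted folds and not measurements.

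Depth differed among libraries. The values of each library are whole multiples of its smallest value, and on this basis 1 read was worth 0.240 to 0.896 RPMR, and a library held 11040 to 173156 miRNA reads. Summed over all entries, miRNA RPMR was 7850 to 18740 in *hyl1-2* at 27 °C and 3757 to 7657 in *hyl1-2* at 21 °C, below the range of every other group, while *dcl1-24/hyl1-2* at 21 °C replicate 3 had the highest sum (107318) and the fewest rRNA reads. Reads given below are inferred in this way, and intervals on them cover counting error only. In whole seedlings, less of a strand in each cell and fewer cells with it cannot be told apart.

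miR393b-3p was the more abundant strand in 18 of 18 libraries. Its mean of 72.7 RPMR over all libraries put it at rank 27 of 161 entries, against 2.95 RPMR and rank 104 for miR393a-3p. It was represented by 19 to 582 reads in a library, whereas miR393a-3p had 0 to 25 reads and was at 0 in 2 libraries. Of the reads of both strands, miR393b-3p made up 98.5% in the 27 °C libraries of *dcl1-24/hyl1-2* (1000 against 15 reads, exact 95% interval 97.6% to 99.2%) and 94.4% in the 21 °C libraries of *dcl1-24/hyl1-2* (187 against 11 reads, 90.3% to 97.2%). Its share was 98.8% in *hyl1-2* at 27 °C (672 against 8 reads, 97.7% to 99.5%) and 97.6% in *hyl1-2* at 21 °C (82 against 2 reads, 91.7% to 99.7%). In Col-0 the share was 95.4% at 27 °C (1005 against 49 reads, 93.9% to 96.5%) and 82.2% at 21 °C (176 against 38 reads, 76.5% to 87.1%). Col-0 at 21 °C was thus the group in which the *MIR393a* strand took the largest part.

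miR393b-3p, the strand known to repress *MEMB12*, was higher in the warm. In *dcl1-24/hyl1-2* its level was 69.6, 116 and 273 RPMR at 27 °C, against 24.6, 18.9 and 78.9 RPMR at 21 °C. In *hyl1-2* it was 96.7, 54.6 and 49.0 RPMR at 27 °C, against 16.6, 16.7 and 6.47 RPMR at 21 °C. In Col-0 it was 116, 237 and 49.5 RPMR at 27 °C, against 48.0, 13.5 and 22.2 RPMR at 21 °C. Every 27 °C library lay above every 21 °C library in *hyl1-2* and in Col-0, although in Col-0 the lowest 27 °C library and the highest 21 °C library were nearly equal. In *dcl1-24/hyl1-2* the groups overlapped through replicate 3 at 21 °C, the library with the highest miRNA sum. Such a complete separation upward was seen for 16.5% of the 139 entries in *hyl1-2*, 5.76% in Col-0 and 0.719% in *dcl1-24/hyl1-2*.

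**Figure D1:**
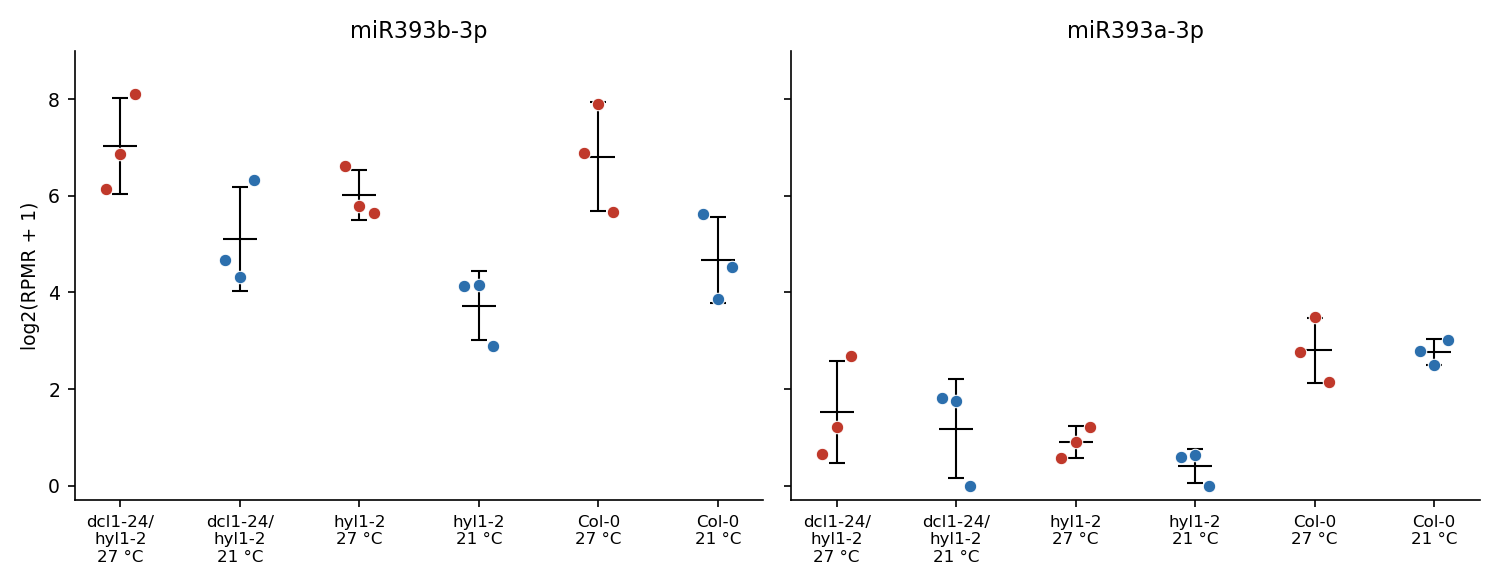
Level of miR393b-3p (left) and miR393a-3p (right) as log2(RPMR + 1) in each library of the 6 groups. Red points are 27 °C and blue points 21 °C libraries (3 each), horizontal lines are means and bars SD; miR393b-3p lies higher at 27 °C in each genotype, and the means of miR393a-3p are lower in both mutants than in Col-0.

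Averaged over the 3 genotypes, miR393b-3p rose 4.35-fold at 27 °C relative to 21 °C, a log2 fold change of 2.12 (SE 0.44, limma adjusted p = 0.00025, 95% interval 1.26 to 2.98) on the log2(RPMR + 1) scale. This was the largest rise among the 139 entries, whose median was 0.29. At a limma adjusted p under 0.05, 6.47% of the entries were higher and 2.16% lower in this comparison, and miR393b-3p had the second smallest p-value of all. Leaving out each library in turn gave 1.94 to 2.32, with adjusted p-values of 1.4e-05 to 0.0019. The rise also passed under each other scaling tried: 1.80 relative to summed miRNA RPMR, 1.98 relative to that sum without miR5026, an abundant entry in the mutants, and 1.66 with median-of-ratios factors.

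Within single genotypes the changes were of like size but did not pass the correction over 139 entries. The log2 fold change of miR393b-3p was 1.93 in *dcl1-24/hyl1-2*, 2.29 in *hyl1-2* and 2.14 in Col-0 (SE 0.75 each), with limma adjusted p = 0.23, 0.14 and 0.15. With limma no entry at all was called higher at 27 °C within a genotype, where 5, 16 and 11 entries were higher in *dcl1-24/hyl1-2*, *hyl1-2* and Col-0 at an unadjusted p under 0.05. Scaled to summed miRNA RPMR, the 3 values were 1.94, 1.34 and 2.13, and each passed (limma adjusted p = 0.0026, 0.025 and 0.0010). The SE was 0.35 each there, and how many of the 139 entries passed under this scaling was not counted. The difference between genotypes in the warm response was itself tested. It was −0.21 for *dcl1-24/hyl1-2* minus Col-0, −0.36 for *dcl1-24/hyl1-2* minus *hyl1-2* and 0.15 for *hyl1-2* minus Col-0, none of which passed (limma adjusted p = 0.974, 0.925 and 0.995), and the 95% intervals, −2.32 to 1.90, −2.47 to 1.76 and −1.96 to 2.26, leave room for differences as large as the response.

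**Figure D2:**
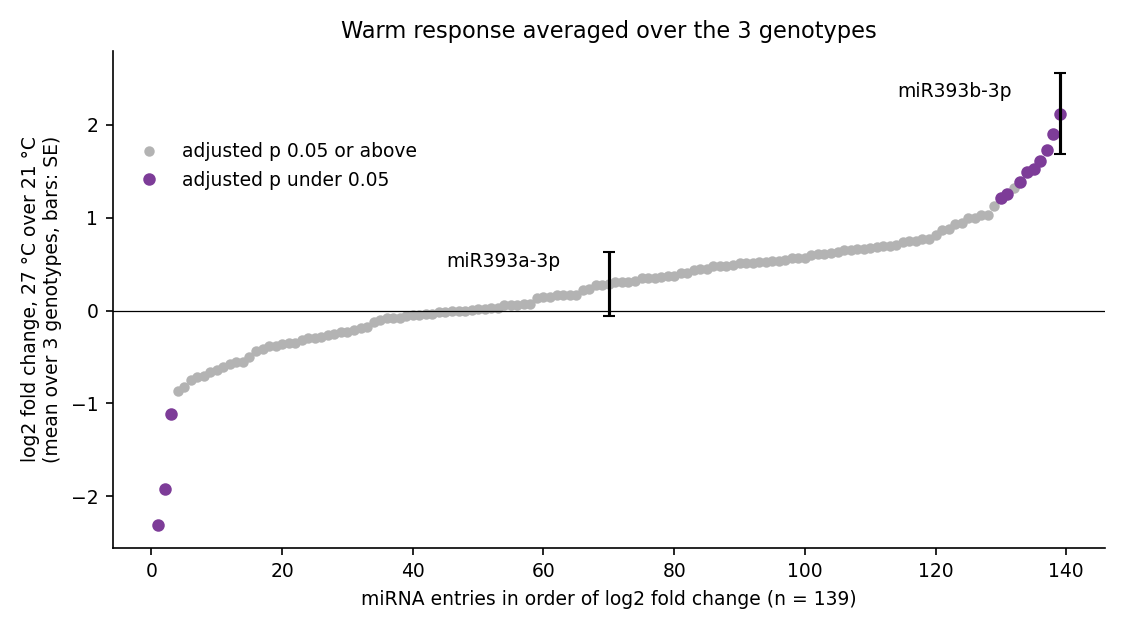
Log2 fold change at 27 °C over 21 °C, averaged over the 3 genotypes, of the 139 miRNA entries in order of size, with bars of SE on the miR393 strands. Purple points have a limma adjusted p under 0.05; miR393b-3p has the highest value of all (2.12), whereas miR393a-3p lies at the median (0.29).

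miR393a-3p, the opposite strand of the other precursor, was not called higher or lower in the warm. In *dcl1-24/hyl1-2* it was at 0.580, 1.34 and 5.46 RPMR at 27 °C, against 2.51, 2.36 and 0 RPMR at 21 °C. In *hyl1-2* it was at 0.481, 0.888 and 1.33 RPMR at 27 °C, against 0.504, 0.556 and 0 RPMR at 21 °C. In Col-0 it was at 5.86, 10.2 and 3.41 RPMR at 27 °C, against 5.94, 4.64 and 7.09 RPMR at 21 °C. The temperatures overlapped in every genotype. A count of 0 allows up to 3 reads, or 2.69 RPMR in replicate 3 of *dcl1-24/hyl1-2* kept at 21 °C and 1.02 RPMR in *hyl1-2* at 21 °C replicate 3. The averaged log2 fold change was 0.29 (SE 0.35, limma adjusted p = 0.59, 95% interval −0.40 to 0.97), the median value of all entries. It rests on 0 to 25 reads a library.

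The gap between the strands widened in the warm. It was measured in each library as log2(miR393b-3p + 1) minus log2(miR393a-3p + 1). Since this difference contains the miR393b-3p level, its widening is not evidence separate from the warm rise of that strand. Where miR393a-3p is near or below 1 RPMR, as in every *hyl1-2* library, the added 1 makes up much of its log value, and the size of the difference then depends on it. In *dcl1-24/hyl1-2* it was 5.48, 5.64 and 5.41 at 27 °C, against 2.87, 2.56 and 6.32 at 21 °C. In *hyl1-2* it was 6.04, 4.88 and 4.42 at 27 °C, against 3.55, 3.51 and 2.90 at 21 °C. In Col-0 it was 4.10, 4.41 and 3.52 at 27 °C, against 2.82, 1.36 and 1.52 at 21 °C. The 27 °C libraries were all above the 21 °C libraries in *hyl1-2* and in Col-0, while in *dcl1-24/hyl1-2* the single value of 6.32 came from the library in which miR393a-3p was at 0.

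**Figure D3:**
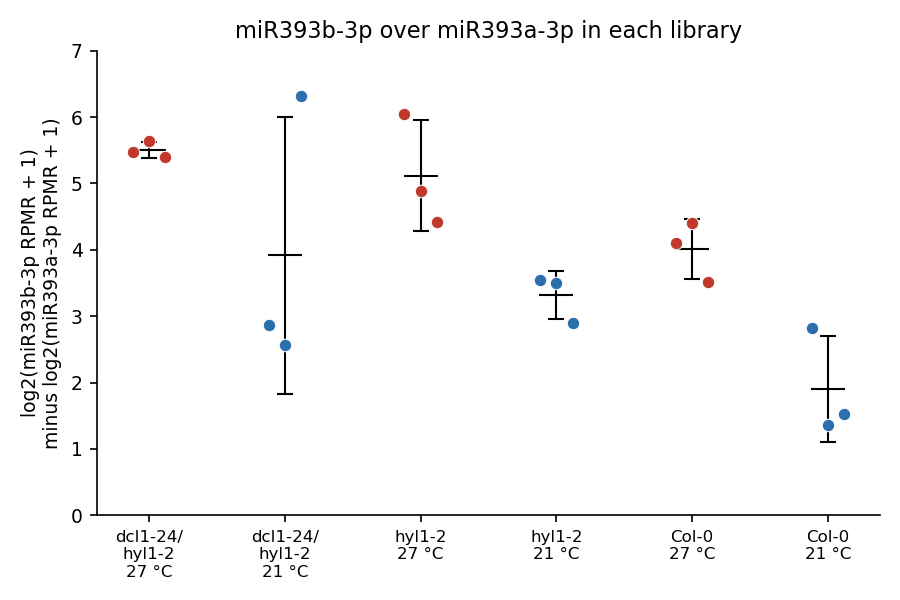
Difference between the strands, log2(miR393b-3p RPMR + 1) minus log2(miR393a-3p RPMR + 1), in each library (red, 27 °C; blue, 21 °C; lines, mean; bars, SD; n = 3 libraries per group). Group means at 27 °C are above those at 21 °C in each genotype, and Col-0 at 21 °C has the lowest mean (1.90).

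Across genotypes, the difference was larger by 1.83 at 27 °C than at 21 °C, a 3.56-fold higher ratio (exact two-sided permutation test within genotype, p = 0.00175, adjusted p = 0.007 over the 4 comparisons of this measure). It was higher in all 3 genotypes, by 1.59 in *dcl1-24/hyl1-2*, 1.80 in *hyl1-2* and 2.11 in Col-0. With nothing added, the ratio of RPMR summed over the libraries of a group was 62.1 at 27 °C against 25.2 at 21 °C in *dcl1-24/hyl1-2*, 74.1 against 37.5 in *hyl1-2* and 20.7 against 4.74 in Col-0. In *hyl1-2* this rests on 8 against 2 miR393a-3p reads, and the intervals of the read shares given above overlap there. In the other genotypes these intervals do not overlap, but they pool the reads of a group and leave out the spread between its libraries. Library by library, the shares at 27 °C and 21 °C overlapped in *dcl1-24/hyl1-2* and in *hyl1-2*, and were separate in Col-0. A single genotype cannot pass, since 3 against 3 libraries allow no exact p under 0.1 (exact permutation p = 0.4, 0.1 and 0.1). Without *dcl1-24/hyl1-2* at 21 °C replicate 3 the value was 2.23, and over all leave-outs it was 1.61 to 2.23 with adjusted p-values of 0.001 to 0.016.

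miR393a-3p fell in *hyl1-2* relative to the rRNA reads. Set against Col-0, *hyl1-2* had a log2 fold change of −1.90 at 27 °C (SE 0.60, limma adjusted p = 0.0054) and −2.36 at 21 °C (SE 0.60, limma adjusted p = 0.00040), and every *hyl1-2* library lay below every Col-0 library at both temperatures, as did 54.7% of the entries at 27 °C and 66.2% at 21 °C. This was the common direction. At 27 °C 54.0% and at 21 °C 59.7% of the 139 entries were called lower, with medians of −1.62 and −1.95. Relative to the other miRNAs the call was lost. Scaled to summed miRNA RPMR, miR393a-3p stood at −0.69 at 27 °C and −1.34 at 21 °C (limma adjusted p = 0.42 and 0.089), where the medians of all entries were −0.45 and −0.25.

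miR393b-3p was not called in this comparison. Between *hyl1-2* and Col-0 its log2 fold change was −0.79 at 27 °C (SE 0.75, limma adjusted p = 0.37, 95% interval −2.29 to 0.70) and −0.94 at 21 °C (SE 0.75, limma adjusted p = 0.28, 95% interval −2.44 to 0.55), with overlapping libraries, and both intervals reach past the medians of all entries. As a share of all miRNA RPMR it was higher in *hyl1-2*, at 0.516% to 0.625% in the 3 *hyl1-2* libraries at 27 °C, against 0.211% to 0.336% in Col-0 at 27 °C. At 21 °C its share was 0.172% to 0.272% in *hyl1-2*, against 0.0427% to 0.0931% in Col-0. The direction thus turned with the scaling. Relative to summed miRNA RPMR the log2 fold change was 1.03 at 27 °C and 1.81 at 21 °C (limma adjusted p = 0.031 and 0.00048), and it was 1.85 and 2.36 without miR5026 in the sum, and 1.25 and 1.60 with median-of-ratios factors. How many of all entries had such a higher share, or were called higher under these scalings, was not counted. Scaling to summed miRNA RPMR divides each library by that sum, which was low in the *hyl1-2* libraries. The low sum thus enters the turn under that scaling by construction. Why the sum was low was not tested.

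The difference between the strands was larger in *hyl1-2* than in Col-0 by 1.26 within temperature (exact permutation p = 0.005, the smallest that 400 arrangements give, adjusted p = 0.01), by 1.11 at 27 °C and 1.42 at 21 °C. It rests on few miR393a-3p reads, 8 and 2 in *hyl1-2* at 27 °C and 21 °C, and fell to 0.20 (exact permutation, adjusted p = 0.55) with 5 RPMR added in place of 1. Taken from RPMR summed over the libraries of a group, with nothing added, it was 2.41 (exact permutation, adjusted p = 0.01).

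Neither strand was called in the suppressor mutant relative to *hyl1-2*. For *dcl1-24/hyl1-2* against *hyl1-2*, miR393b-3p had log2 fold changes of 1.02 at 27 °C and 1.38 at 21 °C (SE 0.75, limma adjusted p = 0.23 and 0.085), and miR393a-3p of 0.62 and 0.78 (SE 0.60, limma adjusted p = 0.34 and 0.21). Of all entries 47.5% were called higher at 27 °C and 79.9% at 21 °C, with medians of 1.46 and 2.09. At 21 °C every *dcl1-24/hyl1-2* library had more miR393b-3p than every *hyl1-2* library, as was so for 70.5% of the entries. Relative to summed miRNA RPMR the direction of miR393b-3p turned, to −1.07 at 27 °C and −1.67 at 21 °C (limma adjusted p = 0.051 and 0.0019). Its share of miRNA RPMR was 0.219% to 0.339% in the 27 °C libraries of *dcl1-24/hyl1-2* and 0.0611% to 0.0735% in its 21 °C libraries, below the *hyl1-2* range at each temperature and overlapping that of Col-0. How many of all entries went the same way on this scaling was not counted. The difference between the strands was larger by 0.50 in *dcl1-24/hyl1-2* than in *hyl1-2* (exact permutation p = 0.56), and turned to −0.10 without *dcl1-24/hyl1-2* at 21 °C replicate 3.

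**Figure D4:**
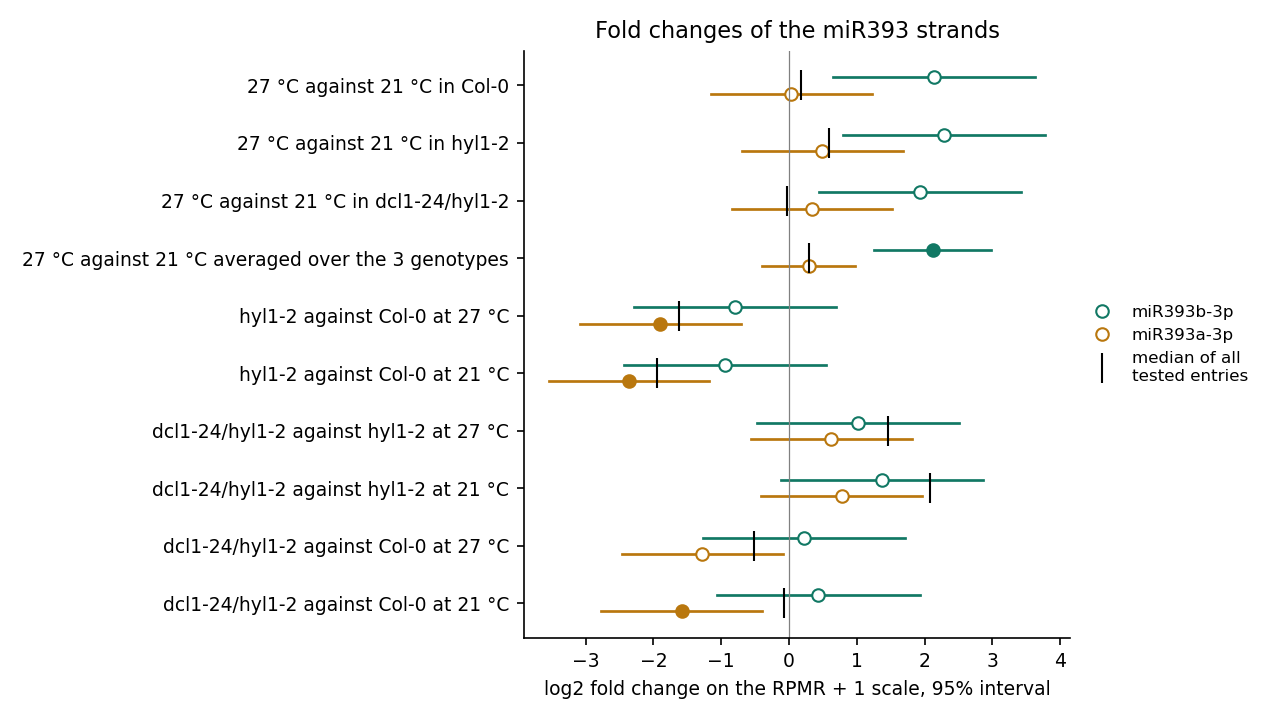
Log2 fold change on the RPMR + 1 scale of miR393b-3p (green) and miR393a-3p (orange) in 10 comparisons, with 95% intervals from limma. Filled points have an adjusted p under 0.05 and black ticks are the median of the 139 entries; miR393b-3p lies right of the tick in the warm, and miR393a-3p left of it in both mutants against Col-0.

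Against Col-0, miR393a-3p was called lower in *dcl1-24/hyl1-2* at 21 °C only narrowly, and miR393b-3p was not called at either temperature. miR393b-3p had log2 fold changes of 0.23 at 27 °C and 0.43 at 21 °C (SE 0.75, limma adjusted p = 0.84 and 0.87, 95% intervals −1.27 to 1.72 and −1.06 to 1.93). miR393a-3p had −1.28 at 27 °C (SE 0.60, limma adjusted p = 0.11) and −1.58 at 21 °C (SE 0.60, limma adjusted p = 0.044). Of all entries 10.1% were called lower at 27 °C and 7.91% at 21 °C, with medians of −0.52 and −0.066. All 3 *dcl1-24/hyl1-2* libraries were below all 3 Col-0 libraries at 21 °C, as for 11.5% of the entries. That call was lost without *dcl1-24/hyl1-2* at 21 °C replicate 3 (−0.99, limma adjusted p = 0.33) and without any of the 3 Col-0 libraries (−1.46 to −1.72, limma adjusted p = 0.053 to 0.13). It was also lost under the 3 other scalings (limma adjusted p = 0.11, 0.33 and 0.13), with 5 RPMR added (0.053), with array weights (0.052) and in a fit of only the groups compared (0.13). The difference between the strands was larger by 1.76 in *dcl1-24/hyl1-2* than in Col-0 (exact permutation p = 0.01, adjusted p = 0.013), and by 1.16 without that same replicate. With 5 RPMR added in place of 1 it was 0.99 and the call was lost (exact permutation, adjusted p = 0.087). The 3 genotype comparisons share libraries and are not independent of each other.

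Ordered by mean log2(RPMR + 1), miR393b-3p was highest in the 27 °C libraries of *dcl1-24/hyl1-2* (7.04 ± 0.99, SD, n = 3 libraries), then in Col-0 at 27 °C (6.81 ± 1.12) and *hyl1-2* at 27 °C (6.02 ± 0.52). It was lower in the 21 °C libraries of *dcl1-24/hyl1-2* (5.10 ± 1.07), Col-0 at 21 °C (4.67 ± 0.89) and *hyl1-2* at 21 °C (3.73 ± 0.72). The warm groups thus came before the cooler ones whatever the genotype, although the libraries of neighbouring groups in this order overlapped. miR393a-3p was ordered by genotype instead. Its means were 2.80 ± 0.67 and 2.77 ± 0.26 in Col-0 at 27 °C and 21 °C, 1.52 ± 1.05 and 1.19 ± 1.03 in *dcl1-24/hyl1-2*, and 0.90 ± 0.33 and 0.41 ± 0.36 in *hyl1-2*, again with overlap between neighbours. Ranked among the 161 entries of its own library, which needs no scaling, miR393b-3p stood at 15 to 18 in *hyl1-2* at 27 °C, against 21 to 30 in *hyl1-2* at 21 °C. In *dcl1-24/hyl1-2* it stood at 16 to 18 at 27 °C, against 34 to 42 at 21 °C, and in Col-0 at 24 to 32 at 27 °C, against 44 to 51 at 21 °C. By rank the temperatures did not overlap in any genotype. How many other entries separate by rank was not counted, so this is a description only.

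The entries most like each strand over the 18 libraries were given by Pearson's r of log2(RPMR + 1), as a description of libraries that share genotype, temperature and depth. For miR393b-3p these were miR408-5p (r = 0.93), miR168a-3p (0.90) and miR156a-3p (0.90), all of them also opposite strands. With the median of each library subtracted, miR408-5p (0.89), miR168a-3p (0.85) and miR156b-3p (0.84) led. miR408 guides repress copper-protein genes, miR168 guides *AGO1* and miR156 guides the *SPL* genes of phase change. In the warm, averaged over genotypes, miR408-5p rose by 1.73 (SE 0.43, limma adjusted p = 0.0027), miR168a-3p by 1.39 (SE 0.43, limma adjusted p = 0.021), miR156a-3p by 1.52 (SE 0.46, limma adjusted p = 0.017) and miR156b-3p by 1.61 (SE 0.45, limma adjusted p = 0.012), all log2 fold changes. Likeness to miR393b-3p across these libraries includes its warm response, so these rises are not separate evidence.

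For miR393a-3p the leading entries were miR848 (r = 0.89), miR1886.2 (0.85) and miR159a (0.84), the last being the abundant guide that represses GAMYB-like genes. After subtracting library medians they were miR848 (0.85), miR171b-5p (0.71) and the joint entry of miR162a-5p and miR162b-5p (0.67). None of these 5 entries was called in the averaged warm comparison, and at 27 °C all 5 were lower in *hyl1-2* relative to Col-0, with log2 fold changes of −5.29 for miR159a, −3.32 for miR1886.2, −2.65 for miR848, −2.27 for the miR162 entry and −2.09 for miR171b-5p (limma adjusted p of 1.4e-10 to 0.00038). Of the 139 entries 54.0% were called lower in that comparison. Likeness to miR393a-3p across these libraries includes its fall in *hyl1-2* and its lack of a warm call, so neither is separate evidence. The miR393 strands were little like each other. Their r was 0.34, and 0.020 with library medians subtracted, so that of the 138 other entries miR393a-3p came at rank 104 for miR393b-3p.

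Other auxin-related families were set beside the miR393 strands. These were the 11 entries, guides and passengers, of miR160 and miR167, whose guides repress auxin response factor genes, and of miR390, whose guide starts the tasiRNAs against such genes. Averaged over genotypes, 0 of the 11 were called higher or lower at 27 °C by limma (6.47% and 2.16% over all entries). Their median log2 fold change was 0.69 (0.29 over all entries). At an unadjusted limma p under 0.05, 3 were higher and 0 lower (23 and 6 of all 139 entries). Without Col-0 at 27 °C replicate 3, 2 were called higher, and the number over all entries was not counted. The most abundant were the joint entries of miR167a-5p and miR167b (1.03, SE 0.42, limma adjusted p = 0.12), miR390a-5p and miR390b-5p (0.77, SE 0.43, limma adjusted p = 0.29), and miR160a-5p, miR160b and miR160c-5p (0.77, SE 0.43, limma adjusted p = 0.29). Between *hyl1-2* and Col-0, 8 of 11 were called lower at 27 °C and 7 of 11 at 21 °C (54.0% and 59.7% over all entries), and in *dcl1-24/hyl1-2* against *hyl1-2* 4 and 10 were called higher (47.5% and 79.9% over all entries). The 8 became 5 without *hyl1-2* at 27 °C replicate 3, and 2 when scaled to summed miRNA RPMR. How many of all entries were called in these 2 fits was not counted. The genotype counts of the main fit lie near the rate of all entries.

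Passenger strands of other conserved families gave the closest set for comparison, with 30 of 33 entries tested. The set is not separate from those above. It holds passengers of miR160, miR167 and miR390. It also holds miR408-5p, miR168a-3p, miR156a-3p and miR156b-3p, whose warm calls given above are counted again here. Averaged over genotypes, 6 of the 30 were called higher and 2 lower at 27 °C (6.47% and 2.16% over all 139 entries), with a median of 0.59. The 6 changed when single libraries were left out. They became 1 without Col-0 at 27 °C replicate 2, *hyl1-2* at 21 °C replicate 3 or *dcl1-24/hyl1-2* at 27 °C replicate 3. They became 3 on leaving out replicate 1 of *hyl1-2* at 27 °C or the 21 °C replicate 2 of *dcl1-24/hyl1-2*, and 10 without Col-0 at 27 °C replicate 3. How many of all 139 entries were called in these leave-outs was not counted, so the changes are not read as particular to the passenger strands. The most abundant of them were not called: miR396a-3p had 0.75 (SE 0.45), the joint entry of miR166a-5p and miR166b-5p had −0.66 (SE 0.44), and that of miR171a-5p and miR170-5p had 0.57 (SE 0.43), with limma adjusted p = 0.29, 0.36 and 0.44. Between *hyl1-2* and Col-0, 20 of the 30 were called lower at 27 °C and 22 at 21 °C (54.0% and 59.7% over all entries), among them miR396a-3p (−3.01 at 27 °C, SE 0.78, limma adjusted p = 0.00078). The 20 became 12 or 10 without Col-0 at 27 °C replicate 1 or 2, 11 or 13 without *hyl1-2* at 27 °C replicate 2 or 3, and 5 when scaled to summed miRNA RPMR. How many of all 139 entries were called in each of those fits was not counted, so nothing about these strands is read from the changes. In the main fit of *hyl1-2* against Col-0, miR393a-3p was called lower like most of these strands, and miR393b-3p was not.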

How the data were processed

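Small RNA of 15 to 40 nt had been gel-purified and sequenced in 18 libraries. As the authors describe, adapters were removed with cutadapt 3.0, reads of 18 to 42 nt were aligned to the Araport11 annotation with ShortStack, and miRNA reads were scaled to 45S rRNA reads. The authors deposited these levels, RPMR, a form of RPM, and used DESeq2 1.35.0 themselves. The values are whole multiples of a step (within 1.1e-10). Reads inferred from that step gave the depths, read counts, strand shares with their intervals, and the allowance for a count of 0. Columns had too few low values to accept them as recovered reads. The reads given are therefore inferred, and no count test was run.

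Log2(RPMR + 1) was fitted with limma 3.58.1 (R 4.3.3) with a variance trend and a mean for each of 6 groups, and two-sided p-values were adjusted by Benjamini and Hochberg over the 139 entries that averaged 1 RPMR or more. Low entries have understated fold changes on this scale. The difference between the strands was tested by exact permutation within genotype or temperature in Python 3.11.15 (scipy 1.17.1, pandas 2.3.3, numpy 2.4.6), and figures were drawn with matplotlib 3.10.9. The limma procedure was also run on simulated counts with warm changes only, without genotype differences or shifts shared by a whole library. That run does not show how the procedure behaves on libraries that vary as these do. Sequences came from the RefSeq annotation of TAIR10.1, and folds from RNAfold 2.7.2. The table holds no coordinates.

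The strands, lists and alternatives were chosen with earlier results of these data known. The entries named were both miR393 strands, the 3 of highest Pearson r with each (raw and after subtracting library medians), and the 3 of highest mean in each list. Same-numbered libraries deviated together (all 3 correlations over 0.1) only between 27 °C and 21 °C in *dcl1-24/hyl1-2* (0.16, 0.27 and 0.14) and between *hyl1-2* and Col-0 at 27 °C (0.16, 0.29 and 0.48). Alternatives were other pseudocounts, scalings, filters, array weights, a replicate block, fits of only the groups compared, and leaving out each library.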

Additional observations from a re-analysis of the deposited data

How the results depend on the processing

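The averaged warm rise of miR393b-3p and the wider strand difference in the warm (1.47 from summed RPMR, exact permutation, adjusted p = 0.023) passed under every alternative run. For miR393b-3p, the warm change within a genotype, which did not pass with RPMR, passed when scaled to summed miRNA RPMR (1.94 in *dcl1-24/hyl1-2*, 1.34 in *hyl1-2*, 2.13 in Col-0), to that sum without miR5026 (2.25, 1.59, 2.10) and by median of ratios (1.85, 1.39, 1.74), and with array weights in *hyl1-2* (2.08) and Col-0 (2.49). Under these 3 scalings, in that order, its change in *hyl1-2* against Col-0 turned to 1.03, 1.85 and 1.25 at 27 °C and to 1.81, 2.36 and 1.60 at 21 °C. In *dcl1-24/hyl1-2* against *hyl1-2* it turned to −1.07, −0.68 and −0.55 at 27 °C and to −1.67, −1.33 and −1.0 at 21 °C. In *dcl1-24/hyl1-2* against Col-0 it was −0.044 at 27 °C relative to the sum, and passed without miR5026 in the sum (1.17 at 27 °C, 1.02 at 21 °C). How many of all entries passed under these alternatives was not counted.

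For miR393a-3p the same 3 scalings ended the call in *hyl1-2* against Col-0 (−0.69, −0.031 and −0.43 at 27 °C, −1.34, −0.91 and −1.28 at 21 °C) and in *dcl1-24/hyl1-2* against Col-0 at 21 °C (−1.40, −0.91 and −1.09). The *dcl1-24/hyl1-2* against Col-0 call also missed the threshold with a pseudocount of 5 (−0.74), with array weights (−1.27) and in a fit of only the groups compared (−1.58, limma adjusted p = 0.13). Set against *hyl1-2*, *dcl1-24/hyl1-2* turned to −0.77, −0.59 and −0.41 at 27 °C and to −0.060 relative to the sum at 21 °C. With array weights it passed there at 21 °C (1.11), and in *dcl1-24/hyl1-2* against Col-0 at 27 °C (−1.41). Its warm change turned by median of ratios in Col-0 (−0.28), and in *dcl1-24/hyl1-2* relative to the sum (−0.053), by median of ratios (−0.026) and with array weights (−0.11).

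The tests of unequal warm responses, none of which passed, also turned. For miR393b-3p they were −0.78, −0.51, −0.35 and, with array weights, −0.42 (*hyl1-2* minus Col-0), 0.60, 0.66, 0.45 and, with array weights, 0.21 (*dcl1-24/hyl1-2* minus *hyl1-2*), and 0.15 without miR5026 in the sum and 0.11 by median of ratios (*dcl1-24/hyl1-2* minus Col-0). For miR393a-3p they were −0.059 relative to the sum and −0.14 with array weights (*dcl1-24/hyl1-2* minus Col-0), and 0.00072 with a pseudocount of 5 (*dcl1-24/hyl1-2* minus *hyl1-2*). The strand difference missed the threshold with a pseudocount of 5 in *hyl1-2* against Col-0 (0.20) and in *dcl1-24/hyl1-2* against Col-0 (0.99, adjusted p = 0.087), and turned from summed RPMR in *dcl1-24/hyl1-2* against *hyl1-2* (−0.42). The cause of these changes was not tested.

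Leaving out each library in turn, miR393b-3p ranged from 1.60 to 2.72 in the warm in Col-0 (passing without Col-0 at 27 °C replicate 3), 0.77 to 1.77 in *dcl1-24/hyl1-2* against *hyl1-2* at 21 °C (passing without *dcl1-24/hyl1-2* at 21 °C replicate 2), and −0.35 to 0.77 at 27 °C and −0.17 to 0.91 at 21 °C in *dcl1-24/hyl1-2* against Col-0. miR393a-3p ranged from −0.31 to 0.36 in the warm in Col-0 and −0.25 to 0.77 in *dcl1-24/hyl1-2*, 0.47 to 1.37 in *dcl1-24/hyl1-2* against *hyl1-2* at 21 °C (passing without *dcl1-24/hyl1-2* at 21 °C replicate 3), and −1.86 to −0.84 at 27 °C (passing without *dcl1-24/hyl1-2* at 27 °C replicate 3) and −1.90 to −0.99 at 21 °C in *dcl1-24/hyl1-2* against Col-0. The unequal warm responses ranged for miR393b-3p from −0.43 to 0.69 (*hyl1-2* minus Col-0), −0.89 to 0.25 (*dcl1-24/hyl1-2* minus *hyl1-2*) and −0.78 to 0.40 (*dcl1-24/hyl1-2* minus Col-0), and for miR393a-3p from −0.75 to 0.28 (*dcl1-24/hyl1-2* minus *hyl1-2*) and −0.29 to 0.74 (*dcl1-24/hyl1-2* minus Col-0). The strand difference in *dcl1-24/hyl1-2* against *hyl1-2* ranged from −0.10 to 0.84.

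With the replicate block, the averaged warm change of miR393b-3p stayed 2.12 (limma adjusted p = 9.5e-05), the strand difference in the warm stayed 1.83 (exact permutation, adjusted p = 0.031), and no other call of either strand changed. The minimum of 5 RPMR removes miR393a-3p and gave it no value. Among the comparison lists, array weights called 4 of 11 auxin-related entries and 15 of 30 passenger strands higher in the warm. The share called over all 139 entries with these weights was not counted, so nothing is read from these counts. With 0 to 25 reads a library, depth limits every value of miR393a-3p.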
